A study of Mus musculus with 7 samples.

Results

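Macrophages are leukocytes that engulf dying cells and debris. They depend on growth factors that act through the receptor CSF1R, and in the embryonic heart the first of them arise from the yolk sac and lie mainly in and under the epicardium, the outer cell layer of the heart. They carry F4/80, the fractalkine receptor and the mannose receptor, secrete the complement protein C1q, and are rich in lysosomal enzymes. The genes described here are 39 macrophage and leukocyte genes, chosen by name, of 22738 gene rows in RNA sequencing counts from mouse epicardial explants. The tables held 38 of them under the listed name. The other, Spi1, encodes the transcription factor PU.1 and stood under the older name Sfpi1, so its values are given apart.

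The explants were outgrowths of E12.5 heart ventricles laid on gelatin. The hearts were taken off after 48 hours and the cells left behind were grown for 72 hours more, with no treatment. There were 4 wild type libraries and 3 Lmnb1-/- libraries, which lack the gene of the nuclear lamina protein lamin B1, and all were on a mixed C57BL/6;129S4Sv/Jae;129S6/SvEvTac background. The series asks how lamin B1 bears on the timing of epicardial cell migration. The labels do not say whether the replicates were separate embryos or litters, so the spread between libraries may be partly technical.

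Levels are CPM, counts scaled to a common library size (TMM), and 3 counts came to 0.965 to 3.10 CPM depending on the library. Library totals ran from 1024898 (wild type replicate 2) to 3066936 (Lmnb1-/- replicate 1). Lmnb1 had 185 to 567 counts in each wild type library and 2 to 4 in each Lmnb1-/- library, as the labels say. All 12 epicardial markers checked were counted, with a summed level of 2158 to 3416 CPM per library. Cardiomyocyte genes summed to 539 to 871 CPM and endothelial genes to 40.5 to 79.7 CPM. Most of the cardiomyocyte sum was Myl7, Tnnt2 and Tnni1. Myh7 was at 0 in every library, and Tnni3 and Myh6 had 1 and 4 counts in all. Whether cardiomyocytes were present was not tested. Xist and Y-linked counts marked wild type replicates 1 and 3 as female and the other 5 libraries as male. Each table also carries a library number, which the labels do not explain. The numbers are 3, 8, 9 and 15 for wild type replicates 1 to 4 and 4, 13 and 16 for Lmnb1-/- replicates 1 to 3.

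Stretches of promoter are shown first, because these members carry the results below: C1qb and C1qc for the level that the leukocyte genes share, and Mrc1 and Itgam which are set against Csf1r further on. They are the 250 bases before the start of each gene in RefSeq, build GRCm38.p6, which is not the mm9 build that the submitters' processing notes name. Capitals mark GAGGAA on either strand (TTCCTC when it lies on the other strand), the purine-rich core that PU.1 is known to bind.

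C1qb (chr4:136886201-136886450, minus strand): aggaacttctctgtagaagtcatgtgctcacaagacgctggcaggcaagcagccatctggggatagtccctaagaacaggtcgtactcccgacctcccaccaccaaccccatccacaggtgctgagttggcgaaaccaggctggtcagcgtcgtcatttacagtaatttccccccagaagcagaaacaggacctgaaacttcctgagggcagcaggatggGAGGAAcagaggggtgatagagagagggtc

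C1qc (chr4:136892915-136893164, minus strand): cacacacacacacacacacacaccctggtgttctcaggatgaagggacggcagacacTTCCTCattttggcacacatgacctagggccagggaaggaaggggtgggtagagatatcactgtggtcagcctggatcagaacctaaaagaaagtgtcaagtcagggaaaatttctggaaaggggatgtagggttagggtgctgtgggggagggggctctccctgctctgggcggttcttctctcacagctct

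Mrc1 (chr2:14229164-14229413, plus strand): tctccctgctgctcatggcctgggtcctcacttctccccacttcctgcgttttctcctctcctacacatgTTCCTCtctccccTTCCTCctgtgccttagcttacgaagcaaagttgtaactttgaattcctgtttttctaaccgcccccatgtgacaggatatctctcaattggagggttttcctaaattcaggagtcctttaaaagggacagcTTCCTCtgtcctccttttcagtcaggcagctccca

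Itgam (chr7:128062390-128062639, plus strand): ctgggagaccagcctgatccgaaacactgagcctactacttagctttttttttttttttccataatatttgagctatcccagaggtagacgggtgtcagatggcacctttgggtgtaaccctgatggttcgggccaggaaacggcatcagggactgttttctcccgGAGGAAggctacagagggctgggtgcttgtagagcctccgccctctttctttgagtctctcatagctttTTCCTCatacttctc

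The core occurred 3 times in the Mrc1 window, 2 times in that of Itgam and 1 time in each of the C1q windows. It was absent from the windows of Cx3cr1, Coro1a, Mpeg1 and Cybb, which had the same libraries highest as C1qb and C1qc. RefSeq promoters were found for 30 of the 39 members, and 16 of these, or 53.3%, had GAGGAA in at least 1 window. Among all 27025 genes with a promoter of this length the share was 25.9%. The longer form GAGGAAG, which is contained in these matches, was found for 9 of the 30 members against 12% of all genes. These matches are a description of letters and not of sites bound by PU.1.

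Of the 39 members, 37 had at least 1 count. Cd163 and Timd4, receptors of haemoglobin complexes and of phosphatidylserine on some resident macrophages, had 0 counts in every library. The filter on low counts kept 23 members, 17 of them among the 32 genes taken here as restricted to leukocytes. The other 7 members, Apoe, Hmox1, Cd36, Lyve1, Stab1, Gpnmb and Cd14, are also made by other cells. Pf4 was kept among the 32, although megakaryocytes make it too. Summed over the 31 restricted members listed by name, the level was 241, 126, 150 and 714 CPM in wild type replicates 1 to 4. It was 68.5, 494 and 1200.4 CPM in Lmnb1-/- replicates 1 to 3. The highest library was therefore 17.5-fold above the lowest, and both were Lmnb1-/-. Within wild type the range was 5.66-fold. The exact 95% Poisson intervals, which cover counting error only, were 59.6 to 78.3 CPM for the lowest library and 1152 to 1250 CPM for the highest. In bulk RNA, more macrophages and more RNA per macrophage cannot be told apart.

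**Figure D1:**
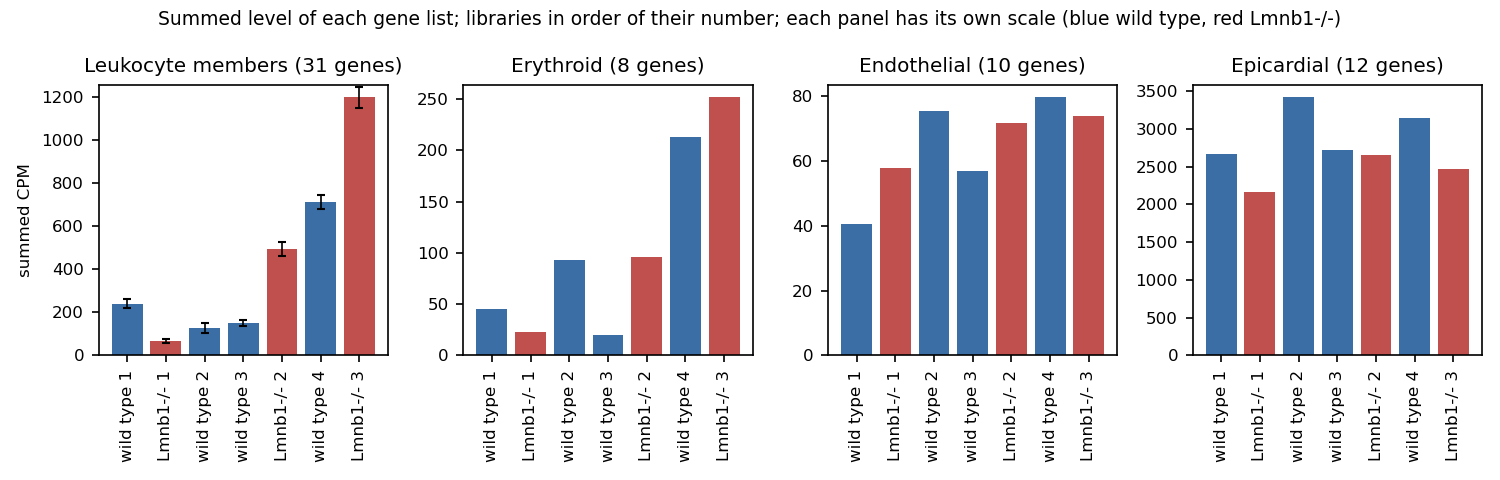
Summed CPM (y axis, linear from 0, a separate scale for each panel) of the 31 leukocyte-restricted members and of the erythroid, endothelial and epicardial marker lists in each library (x axis, in order of library number; blue wild type, red Lmnb1-/-). Bars on the first panel are exact 95% Poisson intervals; leukocyte members reached 494 to 1200.4 CPM in the last 3 libraries and 68.5 to 241 CPM in the first 4.

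The 3 libraries of highest level were Lmnb1-/- replicate 2, wild type replicate 4 and Lmnb1-/- replicate 3, which carry the numbers 13, 15 and 16. All 3 lay above the other 4 libraries for 19 of the 23 members that passed the filter, against 4.33% of all 10775 tested genes. These libraries were singled out by the level of the same genes, and a member counted mainly in them passes the filter through them, so the count is a description. Of the 37 members with any count, 24 showed this order. Wild type replicate 4 was the highest wild type library for 21 of the 23 (21.6% of tested genes). All 3 of these libraries were male, as were wild type replicate 2 and Lmnb1-/- replicate 1, which were among the 4 low libraries.

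Erythroid genes did not all share this order, but their sum, most of it Hbb-y, did. The summed level of the 8 erythroid markers was 95.9, 213 and 252 CPM in Lmnb1-/- replicate 2, wild type replicate 4 and Lmnb1-/- replicate 3, and 19.96 to 93.0 CPM in the other 4. By genotype it was 19.96 to 213 CPM in wild type and 22.5 to 252 CPM in Lmnb1-/- libraries. Hbb-y, an embryonic beta-type globin, had 421, 138 and 420 counts in wild type replicate 4, Lmnb1-/- replicates 2 and 3, and 39 to 86 counts elsewhere. Hba-a1 was the only other erythroid marker with these 3 libraries highest. Hba-x, an embryonic alpha-type globin, was highest in wild type replicate 2, at 19.6 CPM, and Hbb-b1 was at 0 in Lmnb1-/- replicate 2. None of the 8 erythroid markers was at 0 over all libraries. The part of blood cells in the level of the leukocyte genes was not tested. Endothelial and epicardial sums ranged 1.97-fold and 1.58-fold over the libraries. Most of the endothelial sum was Tek and Npr3, so its range is mainly that of these genes. Pecam1, Cdh5, Emcn and Tie1 had 21, 16, 16 and 3 counts in all.

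Csf1r is the receptor that macrophages need to survive. Its level was 27.8, 18.6, 18.8 and 83.1 CPM in wild type replicates 1 to 4, against 15.1, 61.1 and 121 CPM in the Lmnb1-/- libraries in their order. Cx3cr1, the fractalkine receptor, stood at 15.7, 6.20, 8.66 and 49.3 CPM in wild type and 4.18, 26.4 and 70.4 CPM in Lmnb1-/- libraries. Emr1, which encodes F4/80, stood at 8.26, 7.23, 7.53 and 24.5 CPM in wild type and 2.57, 28.0 and 55.5 CPM in Lmnb1-/- libraries. For all 3 receptors wild type replicate 4 and Lmnb1-/- replicates 2 and 3 were high, Lmnb1-/- replicate 1 was lowest, and the genotypes overlapped. Ccr2, the chemokine receptor of monocytes, was near the counting floor, with 10, 0, 2 and 11 counts in wild type and 2, 4 and 16 in Lmnb1-/- libraries. Spi1, under its older name, had 1, 0, 1 and 7 counts in wild type and 0, 5 and 10 in Lmnb1-/- libraries.

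Among genes used by leukocytes in general, the tested ones had the same 3 libraries highest. Coro1a, an actin-binding coronin of leukocytes, had levels of 13.5, 7.23, 13.2 and 57.8 CPM in wild type and 4.18, 38.7 and 108 CPM in Lmnb1-/- libraries. Ptprc, the CD45 phosphatase, had 5.65, 2.07, 4.52 and 33.7 CPM in wild type and 2.25, 25.2 and 45.7 CPM in Lmnb1-/- libraries. Both genes were high in the same 3 libraries, and the genotypes overlapped. Itgam, the CD11b integrin subunit, had 6.96, 3.10, 7.15 and 35.4 CPM in wild type and 1.29, 11.8 and 39.1 CPM in Lmnb1-/- libraries. Its partner Itgb2 had 3.91, 3.10, 3.77 and 15.2 CPM in wild type and 0, 6.17 and 15.9 CPM in Lmnb1-/- libraries. For these 2 integrin genes wild type replicate 4 stood close to Lmnb1-/- replicate 3 and well above Lmnb1-/- replicate 2. Laptm5 and Aif1, the gene of IBA1, had 30 and 24 counts in all and did not pass the filter.

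The 3 chains of C1q, which starts the classical complement pathway, were all counted in every library. C1qa had 8.70, 9.30, 6.78 and 40.9 CPM in wild type and 0.322, 32.5 and 71.4 CPM in Lmnb1-/- libraries. C1qb had 9.13, 5.17, 9.04 and 24.0 CPM in wild type and 1.61, 26.4 and 61.7 CPM in Lmnb1-/- libraries. C1qc had 6.09, 3.10, 4.14 and 16.02 CPM in wild type and 1.93, 13.5 and 43.2 CPM in Lmnb1-/- libraries. The widest gap was that of C1qa between the 1 count of Lmnb1-/- replicate 1 and the 139 counts of Lmnb1-/- replicate 3. In the 2 other chains these libraries had 5 and 120 counts, and 6 and 84 counts.

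Fc receptors and their adaptors came next. Fcgr3, a low-affinity IgG receptor, had 6.09, 2.07, 0.753 and 16.02 CPM in wild type and 0.643, 16.3 and 25.7 CPM in Lmnb1-/- libraries. Tyrobp, the signalling adaptor DAP12, had 2.17, 0, 4.90 and 10.1 CPM in wild type and 0.643, 7.85 and 20.04 CPM in Lmnb1-/- libraries. Trem2, a lipid receptor that signals through DAP12, had 3.04, 0, 1.88 and 7.59 CPM in wild type and 0.322, 4.49 and 15.4 CPM in Lmnb1-/- libraries. These 3 genes shared the 3 high libraries, and each had at most 14 counts in any of the other 4. Fcgr1, the high-affinity IgG receptor, had 2, 1, 1 and 8 counts in wild type and 1, 2 and 15 in Lmnb1-/- libraries. Fcer1g, the common gamma chain, had 1 to 9 counts per library, the most in wild type replicate 4. Of the reads assigned to Fcgr3 in both count columns of the tables, 15.4% lay in the second, whose meaning is not stated and which was read as reads that match several places.

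Lysosomal and phagocytic genes digest what macrophages take up. Lyz2, the lysozyme of macrophages, had 55.7, 26.9, 25.2 and 83.9 CPM in wild type and 12.9, 47.7 and 151 CPM in Lmnb1-/- libraries. It was the only tested restricted member whose 3 highest libraries were not those numbered 13, 15 and 16, since wild type replicate 1 lay above Lmnb1-/- replicate 2. Ctss, the lysosomal protease cathepsin S, had 20.4, 7.23, 7.15 and 89.0 CPM in wild type and 3.54, 52.2 and 121 CPM in Lmnb1-/- libraries. Mpeg1, which encodes the pore-forming perforin-2, had 21.3, 8.27, 10.2 and 59.5 CPM in wild type and 5.15, 34.2 and 89.9 CPM in Lmnb1-/- libraries. Cybb, the membrane subunit of the phagocyte NADPH oxidase, had 10.4, 5.17, 3.77 and 32.0 CPM in wild type and 1.61, 14.0 and 40.6 CPM in Lmnb1-/- libraries. In all 4 the wild type range lay inside the Lmnb1-/- range. Cd68, the lysosomal glycoprotein macrosialin, had only 46 counts in all.

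Lyz2 and its neighbour Lyz1 could not be fully separated. Lyz1 had 2 counts in the first column over all libraries, but 182 in the second. Lyz2 had 839 counts in the first column and 247, or 22.7% of both, in the second. The coding sequences, taken from the GENCODE M21 transcripts, have 447 bases each and differ at 22 of them (95.1% identity), with identical runs of up to 118 bases. The first 120 bases are shown, with the 11 differing bases in capitals.

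Lyz1: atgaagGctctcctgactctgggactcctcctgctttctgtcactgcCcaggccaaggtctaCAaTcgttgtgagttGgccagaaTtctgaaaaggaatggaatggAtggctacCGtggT

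Lyz2: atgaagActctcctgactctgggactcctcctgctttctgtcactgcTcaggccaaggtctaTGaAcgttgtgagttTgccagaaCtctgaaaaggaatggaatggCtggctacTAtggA

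A read within an identical run fits both genes, so the Lyz2 level in the first column is a lower estimate and that of Lyz1 is uncertain.

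Markers of resident scavenging macrophages were few in counts. Mrc1, the mannose receptor CD206, had 3, 1, 5 and 9 counts in wild type and 4, 25 and 70 in Lmnb1-/- libraries, or 1.30, 1.03, 1.88 and 3.80 CPM against 1.29, 14.0 and 36.0 CPM. Pf4, platelet factor 4, which macrophages and megakaryocytes make, had 3, 2, 3 and 10 counts in wild type and 3, 23 and 42 in Lmnb1-/- libraries. For both genes Lmnb1-/- replicates 2 and 3 stood above every wild type library, and Lmnb1-/- replicate 1 lay within or below the wild type range. F13a1, the coagulation factor XIII A subunit, had 1, 1, 6 and 9 counts in wild type and 9, 9 and 13 in Lmnb1-/- libraries. Folr2, a folate receptor, had 2 to 5 counts per library, and Lyve1, a hyaluronan receptor of resident macrophages and lymphatic vessels, had 1 count in all. Ms4a7 had 16 counts in all.

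The remaining members are also made by other cells. Hmox1, the haem-degrading oxygenase, had 156, 64.1, 75.7 and 142 CPM in wild type and 175, 103 and 109 CPM in Lmnb1-/- libraries. Its highest library was Lmnb1-/- replicate 1, which was the lowest for 14 of the 17 tested restricted members. Stab1, a scavenger receptor of macrophages and endothelium, had 10.9, 14.5, 10.5 and 24.0 CPM in wild type and 5.15, 25.8 and 73.5 CPM in Lmnb1-/- libraries. Gpnmb, a glycoprotein of lysosome-rich cells, had 23.5, 6.20, 13.6 and 10.5 CPM in wild type and 11.3, 12.3 and 32.9 CPM in Lmnb1-/- libraries. Stab1 followed the order of the restricted members and Gpnmb did not, as wild type replicate 4 was not high for it. Cd36, a fatty acid scavenger receptor, had 8.70, 3.10, 6.40 and 10.5 CPM in wild type and 2.89, 8.97 and 36.0 CPM in Lmnb1-/- libraries. Apoe, an apolipoprotein, ranged from 2.07 to 22.1 CPM, and Cd14, a coreceptor for lipopolysaccharide, from 0.643 to 14.3 CPM, with wild type replicate 4 highest for Cd14.

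**Figure D2:**
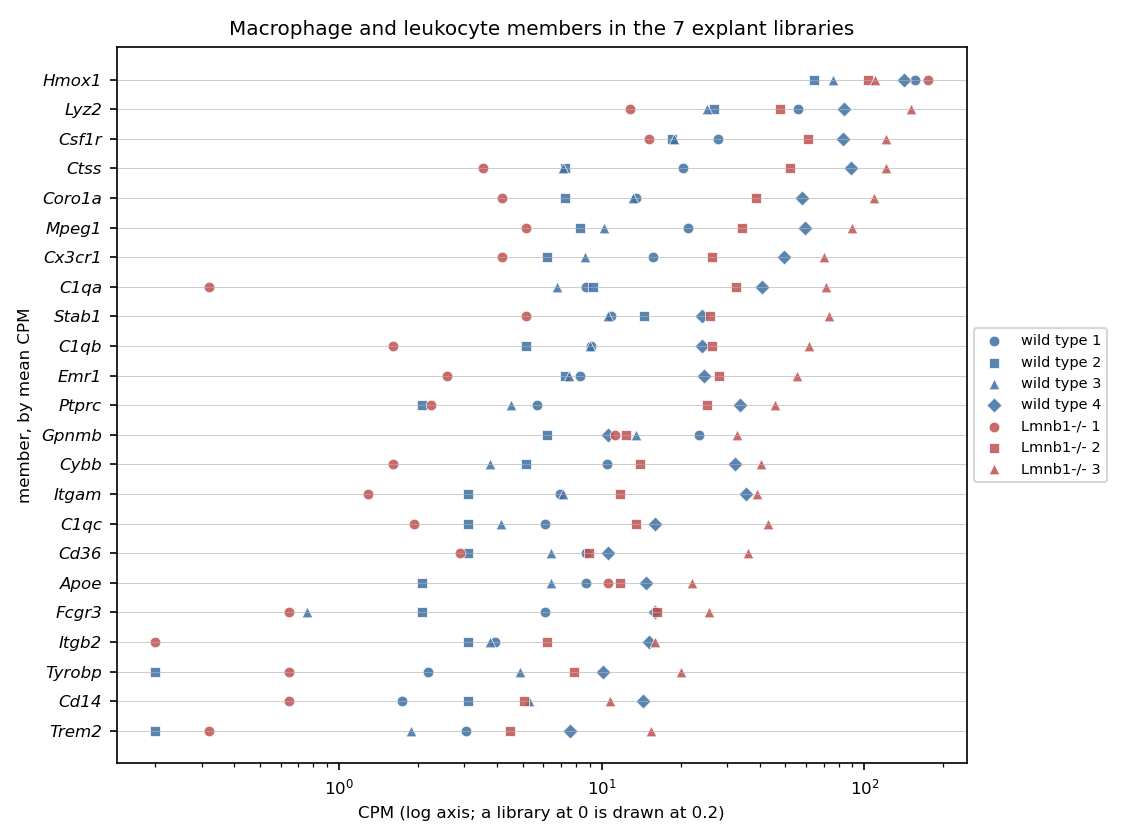
CPM (x axis, log scale; a library at 0 is drawn at 0.2) of the 23 members that passed the count filter (y axis, ordered by mean CPM) in each wild type (blue) and Lmnb1-/- (red) library, 1 point per library. Wild type replicate 4 and Lmnb1-/- replicates 2 and 3 are the 3 rightmost points for 19 of the 23, while Hmox1, at 64.1 to 175 CPM, is the narrowest row.

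Levels were compared between genes only per kilobase of the longest coding transcript in GENCODE M21, as means over the 7 libraries. On this scale Hmox1 had 75.1 CPM per kilobase, Lyz2 43.8, Ctss 31.7, C1qa 23.3, Coro1a 19.9 and C1qb 17.99. Tyrobp, Pf4, Csf1r and C1qc followed at 10.9, 10.7, 10.5 and 10.4, and Mrc1 was at 1.58. The order was not the same in every library. In Lmnb1-/- replicate 3 Lyz2 and Ctss, at 115 and 89.1 CPM per kilobase, were above Hmox1 at 69.8.

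The spread between libraries of the same genotype placed the members among the most variable genes. Over the 4 wild type libraries the median coefficient of variation of the 23 tested members was 92.8%, where counting error alone gives a median of 19.4%. Without wild type replicate 4 the median was 47.8%. In the edgeR model, the biological coefficient of variation was 122% for C1qa, 116% for Ctss, 113% for Fcgr3 and 76.8% for Csf1r. The smallest values were 33.8% for Hmox1, 34.9% for Apoe and 41.3% for Gpnmb. Of the 100 tested genes of highest dispersion, 20 were members, and all 23 tested members were at or above the 95th percentile. The top of that ranking was held by Y-linked genes, which are at 0 or near it in the female libraries. The highest library was more than 4-fold above the lowest, or the lowest was at 0, for 22 of the 23 members, Hmox1 being the exception with 2.73-fold. This was true of 5.96% of all tested genes.

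**Figure D3:**
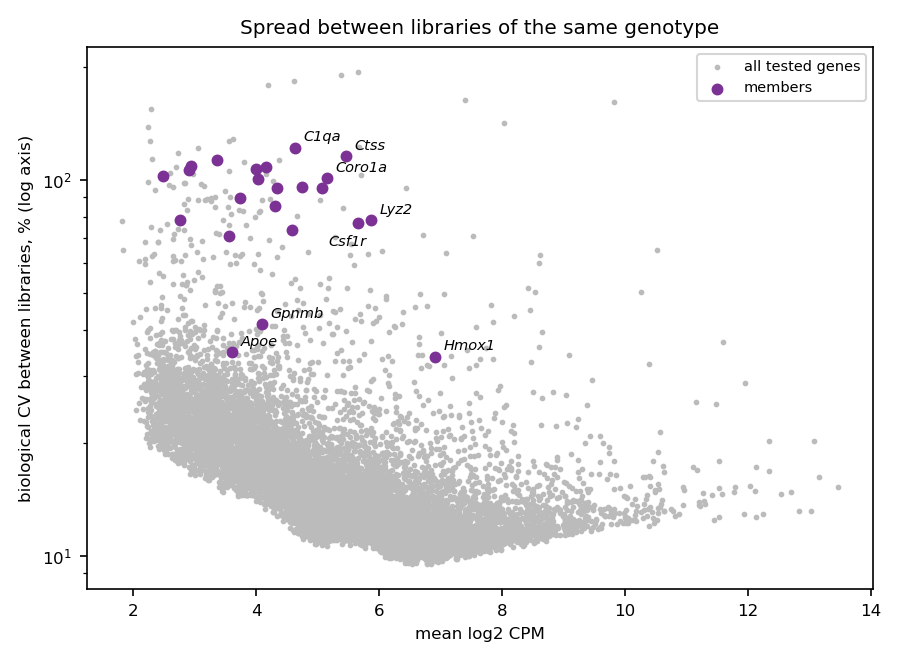
Biological coefficient of variation between libraries of the same genotype (y axis, percent, log scale) against mean log2 CPM (x axis) for all 10775 tested genes (grey) and the 23 tested members (purple). The members lie between 33.8% (Hmox1) and 122% (C1qa), toward the top of the genes of like abundance.

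No tested member passed for genotype against this spread. In the edgeR quasi-likelihood fit over all genes, 0 of 23 tested members passed a Benjamini-Hochberg adjusted p of 0.05, and 0 had an unadjusted p under 0.05. Among all tested genes 0.705% passed, 0.362% higher and 0.343% lower in Lmnb1-/- (39 and 37 genes, or 47 and 26 with unscaled library totals), and 13.6% had an unadjusted p under 0.05. The smallest adjusted p of a member was 0.469, for Apoe. DESeq2 and limma voom also called 0 of the 23. Log2 fold changes, Lmnb1-/- over wild type, were above 0 for 21 of the 23, with a median of 0.79, where 47.6% of all tested genes were above 0 and their median was -0.02. With limma voom 14 of the 23 were above 0 and the median was 0.14, and with sex as a covariate the median was 0.28. The CPM ranges of the genotypes overlapped for every tested member, where 13.3% of all tested genes showed no overlap. Csf1r had a log2 fold change of 0.73 (SE 0.89), C1qc 1.26 (SE 1.05), Emr1 1.16 (SE 1.002), Ctss 0.79 (SE 1.32) and Itgam 0.23 (SE 1.21). These standard errors ran from below the difference, as for C1qc and Emr1, to well above it, as for Ctss and Itgam.

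The sign of the median rested on Lmnb1-/- replicate 3. Without that library the median log2 fold change was -0.33 and 6 of 24 tested members were above 0. Without wild type replicate 4 it was 1.57, and without Lmnb1-/- replicate 1 it was 1.502. No member passed without Lmnb1-/- replicate 3 or wild type replicate 4, where 0.118% and 0.266% of tested genes did. No member passed either without wild type replicate 1, 2 or 3 or Lmnb1-/- replicate 2, where 2.63%, 0.374%, 0.0378% and 0.0273% of tested genes did. Without Lmnb1-/- replicate 1, Mrc1 passed the filter and was the only member called, as given below. In that fit 8 of 26 members had an unadjusted p under 0.05, all above 0, where 10.4% of tested genes did. The fit leaves out the library that was lowest for 14 of the 17 tested restricted members. Of the 8, Mrc1, Pf4 and F13a1 did not pass the filter of the main fit, so the count is a description.

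Libraries with neighbouring numbers were then compared with each other. Wild type replicate 1 and Lmnb1-/- replicate 1 carry the numbers 3 and 4, and Lmnb1-/- replicate 1 was the lower for 21 of 23 tested members (51.5% of all tested genes). The summed level of the restricted members was 0.285-fold that of wild type replicate 1. Among the libraries numbered 13, 15 and 16, Lmnb1-/- replicate 2 was below wild type replicate 4 for 18 of 23 members (50.4% of tested genes), and Lmnb1-/- replicate 3 was above it for 21 (50.6%). Their summed levels were 0.692-fold and 1.68-fold that of wild type replicate 4. Each of these comparisons sets a single library against another, and most members had the same libraries highest. The members are therefore not separate observations, and the counts are a description. Wild type replicate 1 was also female and Lmnb1-/- replicate 1 male. With groups of neighbouring numbers as a block, a fit chosen after the data were seen, the median log2 fold change of the 23 was -0.19 and 8 were above 0. Again 0 of the 23 were called and 0 had an unadjusted p under 0.05, where 0.863% of tested genes were called. Csf1r stood at -0.19 (SE 0.33) and Ptprc at -0.19 (SE 0.35) in this fit, with standard errors well below those without the block. This was not so for every member. The SE went from 0.91 to 0.89 for Lyz2, and it rose from 0.48 to 0.66 for Gpnmb and from 0.84 to 0.87 for Cd36. The numbers 8 and 9 both belong to wild type, so that group gave no genotype difference. What the numbers stand for is not stated, and their part in the level of these genes was not tested.

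**Figure D4:**
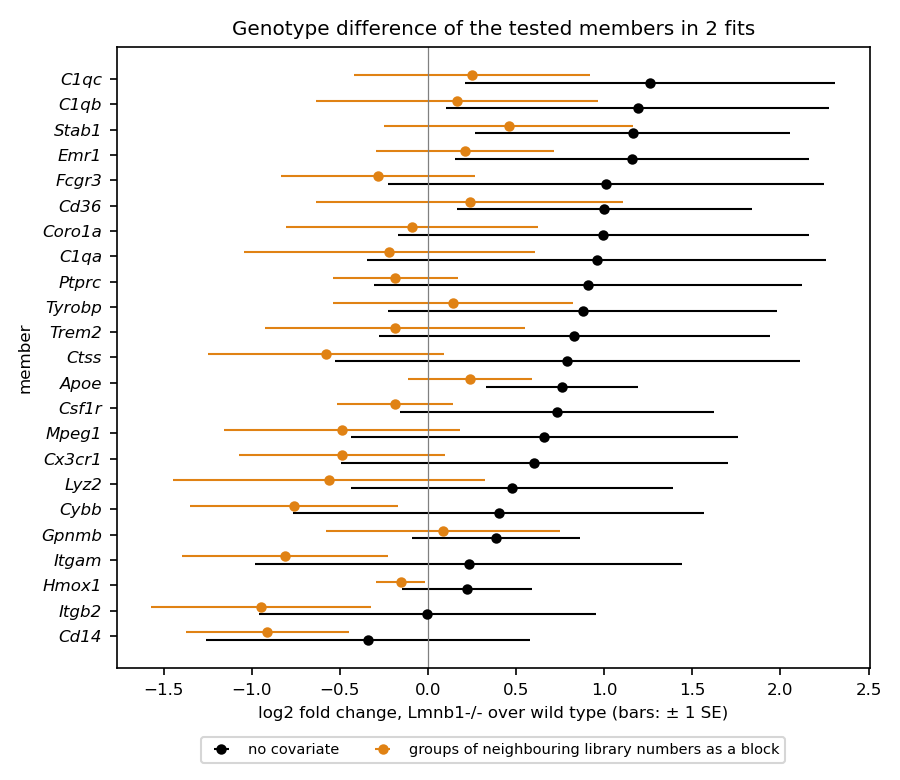
Log2 fold change of the 23 tested members, Lmnb1-/- over wild type (x axis, points with bars of ± 1 SE; y axis, members), in the fit without a covariate (black) and with groups of neighbouring library numbers as a block (orange). The median moves from 0.79 to -0.19, and no member passes in either fit.

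Mrc1 was the only member called when any single library was left out of the filtered fit. For each 100 Csf1r counts there were 4.69, 5.56, 10 and 4.57 Mrc1 counts in the wild type libraries, against 8.51, 22.9 and 29.8 in the Lmnb1-/- libraries. Lmnb1-/- replicates 2 and 3 were above every wild type library, and Lmnb1-/- replicate 1, with 4 Mrc1 counts, lay inside the wild type range. The count filter removed Mrc1, and without the filter its log2 fold change was 2.89 (SE 1.18, adjusted p = 0.493 in edgeR, where 1.07% of genes were called). Without Lmnb1-/- replicate 1 it was 3.51 (SE 0.48, adjusted p = 0.0174 in edgeR, 0.0367% of genes called). That fit leaves out the Lmnb1-/- library where Mrc1 was low, and Mrc1 passes its filter only through the 2 libraries where it was high, so the call is a description. Over the libraries left out in turn, with no filter, it ran from 1.69 to 3.49. After the data were seen, Mrc1 was also fitted without the filter and with the Csf1r level as a covariate, where its log2 fold change was 1.82 (SE 0.46, adjusted p = 0.0103 in edgeR, 1.85% of genes called). With the groups of neighbouring numbers as a block it was 2.22 (SE 0.50, adjusted p = 0.00139 in edgeR, 1.92% of genes called). In that unfiltered fit the SE of Csf1r was 0.19, against 0.33 with the filter, and that of Lyz2 was 0.92 against 0.89. SE and p did not always match there, as for Fcgr3 at -0.28 (SE 0.38, unadjusted p = 0.995 in edgeR). The small p of Mrc1 in that fit is therefore a description. The wild type level rested on 18 counts in all, and counts this low were outside the filter of the main comparison.

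Pf4 was high in the same Lmnb1-/- libraries. For each 100 Csf1r counts there were 4.69, 11.1, 6.00 and 5.08 Pf4 counts in wild type and 6.38, 21.1 and 17.9 in Lmnb1-/- libraries. Without the filter its log2 fold change was 2.33 (SE 1.06, adjusted p = 0.535 in edgeR). The Csf1r covariate gave 1.43 (adjusted p = 0.127 in edgeR). Blocking by number group gave 1.57 (adjusted p = 0.126 in edgeR). Without Lmnb1-/- replicate 1 the adjusted p in edgeR was 0.0661 with the filter, where 0.0367% of genes were called. Without the filter it was under 0.05, but no share of all genes called is given for that fit. Both fits leave out the Lmnb1-/- library where Pf4 was low, with 3 counts, so these values are a description. The wild type level rested on 3, 2, 3 and 10 counts. Megakaryocyte markers, whose cells also make Pf4, summed to 19.6, 22.7, 52.0 and 25.3 CPM in wild type and 8.36, 16.3 and 21.6 CPM in Lmnb1-/- libraries, with 5 of 7 counted. Gp9 and Gp6 were at 0 in every library and Ppbp had 7 counts in all. Most of this sum was Gp1bb and Itgb3, and the part of megakaryocytes in the Pf4 level was not tested.

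Itgam, the CD11b gene, was set against Csf1r in the same way. For each 100 Csf1r counts there were 25.0, 16.7, 38.0 and 42.6 Itgam counts in wild type and 8.51, 19.3 and 32.3 in Lmnb1-/- libraries. With the Csf1r level as a covariate its log2 fold change was -0.93 (SE 0.32, unadjusted p = 0.0103, adjusted p = 0.209 in edgeR), and the ranges overlapped. Itgb2 per 100 Csf1r counts was 14.1 to 20 in wild type and 0 to 13.2 in Lmnb1-/- libraries. These ranges did not overlap, the only such case among members with at least 50 counts. The gap was narrow, as the 14.1 of wild type replicate 1 rested on 9 Itgb2 counts. No share of all genes without overlap on this ratio is given, so it is a description. Itgb2, Cd14 and Cybb also had an unadjusted p under 0.05 below 0 in that fit. These 4 of 23 members compare with 13% of all tested genes, and 0 of 23 members, Csf1r itself among them, passed after adjustment, where 0.733% of tested genes did. Hmox1 per 100 Csf1r counts ran from 90.6 in Lmnb1-/- replicate 3 to 1155 in Lmnb1-/- replicate 1, so it did not keep a constant ratio to the macrophage receptor.

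**Figure D5:**
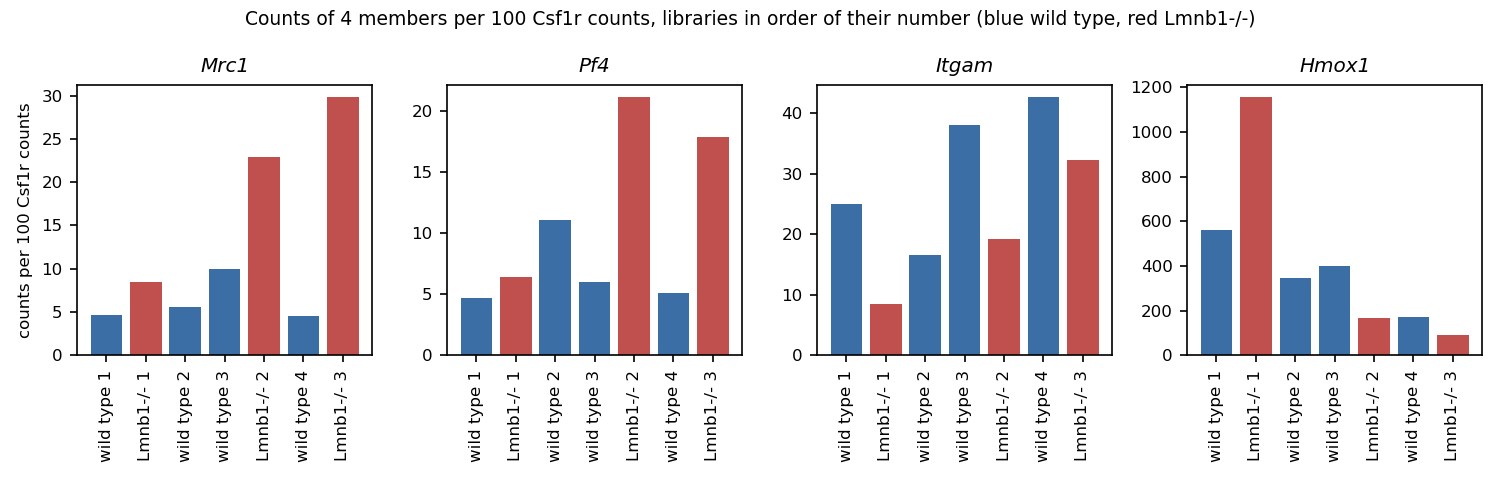
Counts of Mrc1, Pf4, Itgam and Hmox1 per 100 Csf1r counts (y axes, linear from 0) in each library (x axis, in order of library number; blue wild type, red Lmnb1-/-). Mrc1 reaches 22.9 and 29.8 in Lmnb1-/- replicates 2 and 3 against at most 10 in wild type, while Hmox1 is highest, at 1155, in Lmnb1-/- replicate 1.

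Other macrophage genes were read from lists. Of 33 further surface and signalling genes, 18 were tested, 0 passed in either direction, and 10 had all 3 libraries numbered 13, 15 and 16 above the other 4. Their median dispersion was at the 99.3 percentile of tested genes and their median log2 fold change was 0.34. The 3 most abundant, Axl, Arhgdib and Lcp1, are made by other cells too and had log2 fold changes of -0.30, 0.47 and -0.003 with adjusted p-values of 0.362, 0.0630 and 0.998 in edgeR. Of 12 macrophage transcription factors 9 were tested and 0 passed. Their most abundant, Id3, Maf and Cebpb, also act in other cells, with log2 fold changes of -0.18, -0.37 and -0.41. Irf8 and Ikzf1, named after their values were seen, are restricted to blood cells and had 27 and 29 counts in wild type replicate 4 against at most 4 and 7 in the other wild type libraries.

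Of the tested genes for macrophage growth factors and attractants, only Ccl2 had the same 3 libraries highest, with wild type replicates 1 and 4 both at 68.7 CPM. Csf1, the ligand of CSF1R, had 909, 1119, 503 and 588 CPM in wild type and 797, 551 and 497 CPM in Lmnb1-/- libraries. Its log2 fold change was -0.34, with SE 0.32 and, in edgeR, an adjusted p = 0.703. Il34, the other ligand, had 8 counts in all. Cxcl12 and Ccl2, chemokines that attract leukocytes, had log2 fold changes of -0.66 and 0.58 with adjusted p-values of 0.354 and 0.290 in edgeR. Of this list 7 of 14 genes were tested and 0 passed. Lysosomal enzymes that most cells make had a median dispersion at the 44.4 percentile, with 16 tested, 0 called and a median log2 fold change of 0.02. Their most abundant, Ctsl, Ctsd and Lamp1, had 0.41, 0.12 and 0.01.

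Markers of T and B cells, neutrophils and mast cells were at or near 0. Of 9 T and B cell genes only Lck and Cd79a were counted, with 19 and 4 counts, and Cd3d, Cd3e, Cd3g and Ms4a1 were among those at 0. Neutrophil genes summed to at most 0.965 CPM in any library, with S100a9 and Elane at 0, and mast cell genes to at most 2.06 CPM. The 6 dendritic cell genes summed to 15.7 to 31.0 CPM, nearly all of it Zbtb46, a transcription factor that endothelial cells also make, with 314 of their counts. Flt3 and Clec9a were at 0, and Xcr1, Itgax and Cd209a had 19, 5 and 1 counts in all. Antigen presentation genes summed to 3.48 to 5.27 CPM in wild type and 4.82, 9.54 and 13.9 CPM in Lmnb1-/- libraries, and none of the 8 passed the filter. Among inflammatory cytokines and enzymes, Ptgs2, Il6 and Il18 were tested, with log2 fold changes of 0.49, 0.41 and -1.14, and 0 of 3 passed. Of the macrophage chemokines only Cxcl16 was tested, at 0.27 (adjusted p = 0.566 in edgeR).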

How the data were processed

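Each deposited table gives 1 library as whole-number counts for 22738 named gene rows, in 2 columns that carry no heading. TopHat, edgeR and mm9 stand in the submitters' processing notes without versions. The counting program is not given in the sources used here. The first deposited count column was used, and the second held 16.6 to 19.6% of both columns' counts. The library kit named in the labels' protocols (TruSeq RNA v2) does not mark strand.

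Counts were filtered with filterByExpr, scaled by TMM and fitted with the edgeR 4.0.16 quasi-likelihood model (robust, no covariate, R 4.3.3) over all 10775 genes kept, with Benjamini-Hochberg adjusted p-values over all of them. DESeq2 1.42.0 and limma 3.58.1 were alternatives. SE is the fold change over the root of F. Restricted members, role groups and other gene lists (177 of 178 entries matched a row, with 1 of them, Emr1, already a member) were assigned by hand. Values in each library were given for called members and for up to 4 of highest mean CPM per role group, and from each other list for up to 3. Genes named beyond this were chosen after their values were seen. Members and lists were chosen with earlier results of these data known. The procedure was tested on simulated counts. Replicate pairs within a genotype differed by chi-square values per degree of freedom of 2.22 to 7.71, so none was a repeated library. Library numbers were read from the tables' names, and a new group began where the gap was over 2. Alternatives are given in the closing section.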

Additional observations from a re-analysis of the deposited data

Results flagged for a closer look

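Among the 4 wild type libraries, wild type replicate 4 stood apart from the others for several members. Its gap to the next library, as a share of the whole wild type range, was above the 95% critical value of 0.829 for Emr1 (0.94), Itgb2 (0.933), C1qa (0.926), Ptprc (0.887), Coro1a (0.876), Itgam (0.875), Csf1r (0.857) and Ctss (0.838). Chance alone marks about 1 in 20 such groups. Of 28 items checked, 8 were marked, and because they come from the same 4 libraries they are not separate observations. The summed level of the restricted members was not marked. Lyz1 had 182 counts in the second count column, which was used only where both columns were summed, and 2 in the first.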

How the results depend on the processing

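Members were called only in fits without Lmnb1-/- replicate 1 or in unfiltered fits with a second change. With the filter, Mrc1 was called without Lmnb1-/- replicate 1, so the range over libraries left out was 0 to 1. The calls of Mrc1 and Pf4 in unfiltered fits are given above. The 76 genes called in all became 180 with no count filter, 163 with DESeq2, 46 with limma voom, 44 with both count columns summed, 38 with sex as a covariate, and 3 to 279 over the libraries left out. Among 39 other tested macrophage and leukocyte genes 0 were called, where 0.705% of all tested genes were. Of the 39, 9 had an unadjusted p under 0.05, against 13.6% of all tested genes. With library totals, with no filter and with DESeq2 1 such gene was called each, Arhgdib. Of all genes, 73 of 10775, 180 of 16754 and 163 of 10775 were called in these fits. Over the libraries left out 0 to 2 such genes were called, Arhgdib and Ptgs2 without wild type replicate 1, where 2.63% of tested genes were. The median coefficient of variation ran from 47.8% without wild type replicate 4 to 92.5%, and was 80.4% without wild type replicate 2. Summed levels moved by less than 1 SD under other scalings and columns.

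The labels give both genotypes replicate numbers. With the replicate block 77 genes and 0 members were called, 2 members having an unadjusted p under 0.05, and Itgb2 stood at 0.62. Deviations of same-numbered libraries correlated at 0.26, -0.16 and -0.09, so the numbers were not taken as pairs.

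Several named members changed sign without passing. With number groups as a block, chosen after seeing the data, log2 fold changes were -0.19 for Csf1r, -0.49 for Cx3cr1, -0.091 for Coro1a, -0.19 for Ptprc, -0.81 for Itgam, -0.22 for C1qa, -0.28 for Fcgr3, -0.19 for Trem2, -0.56 for Lyz2, -0.58 for Ctss, -0.49 for Mpeg1, -0.76 for Cybb, -0.16 for Hmox1 and, unfiltered, -0.67 for Ccr2. With the Csf1r level as a covariate they were -0.40 for Cx3cr1, -0.17 for Coro1a, -0.041 for Ptprc, -0.93 for Itgam, -0.35 for C1qa, -0.00083 for C1qb, -0.021 for Fcgr3, -0.14 for Tyrobp, -0.29 for Trem2, -0.50 for Lyz2, -0.39 for Ctss, -0.37 for Mpeg1, -0.71 for Cybb and, unfiltered, -0.47 for Ccr2 and -0.079 for Fcgr1. With limma voom they were -0.0066 for Cx3cr1, -0.65 for Itgam, -1.002 for C1qa, -0.13 for C1qb, -0.016 for Trem2, -0.15 for Lyz2 and -0.35 for Cybb. In male libraries Cx3cr1, Itgam and Cybb had -0.0086, -0.44 and -0.26, and with sex as a covariate Itgam and Cybb had -0.41 and -0.23. Itgb2, near 0, had 0.041 with library totals, 0.0030 with the CPM filter, 0.17 with DESeq2 and 0.014 with both columns. The cause was not tested.

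Over the libraries left out, log2 fold changes ran from -0.086 to 1.54 for Csf1r, -0.59 to 1.60 for Cx3cr1, -1.03 to 0.93 for Ccr2, -0.30 to 2.02 for Coro1a, -1.29 to 1.41 for Itgam, -1.42 to 0.70 for Itgb2, -0.21 to 2.06 for C1qa, -0.16 to 1.998 for C1qc, -0.39 to 1.52 for Tyrobp, -0.78 to 1.495 for Trem2, -1.11 to 1.96 for Fcgr1, -0.79 to 1.01 for Lyz2, -0.36 to 2.23 for Ctss, -0.53 to 1.58 for Mpeg1, -0.96 to 1.44 for Cybb, -0.068 to 0.44 for Hmox1, -0.057 to 1.73 for Stab1, -0.26 to 0.78 for Gpnmb and -0.46 to 1.56 for Cd36. The 14 counted members outside the filter are limited by depth, since 3 counts were 3.10 CPM in wild type replicate 2.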

Other observations

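Among the 100 tested genes of highest dispersion, 64 were in neither the members nor the other lists. Of these, 38 had wild type replicate 4 and Lmnb1-/- replicates 2 and 3 all above the other 4 libraries, against 4.33% of all tested genes. This order splits both genotypes and so raises the dispersion that the genes were ranked by, which makes the count a description. The 38 include the Y-linked Eif2s3y and Uty, which were at 0 in the female libraries. Those given here were named after their values were seen. Msr1, a macrophage scavenger receptor, had 45, 11, 46 and 199 counts in the wild type libraries, against 17, 104 and 318 in the Lmnb1-/- libraries. Ctsc, a lysosomal protease, had 40, 26, 35 and 188 counts in wild type and 38, 59 and 216 in Lmnb1-/- libraries. Pik3cg, a leukocyte phosphoinositide kinase, had 1, 0, 4 and 21 counts in wild type and 0, 11 and 19 in Lmnb1-/- libraries.

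Other highly variable genes had a different order. Eln, which encodes elastin, had 232, 6, 3606 and 584 counts in wild type and 7, 117 and 43 in Lmnb1-/- libraries, so wild type replicate 3 was highest. Acan, the cartilage proteoglycan aggrecan, had 53, 5, 172 and 34 counts in wild type and 2, 11 and 2 in Lmnb1-/- libraries. Lars2, a mitochondrial tRNA synthetase gene, had 5945 counts in wild type replicate 2 and 40 to 173 in the other 6 libraries.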
